A study of Mus musculus with 6 samples.

Results

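A set of 9 genes for the recognition of dying cells were followed in the infarcted mouse heart, chosen by name from the receptors and bridging proteins of efferocytosis, the engulfment of dying cells. They are among the 35498 genes summed, and each matched a single gene. Mertk, Axl and Tyro3 are the TAM receptor tyrosine kinases, Gas6, Pros1 and Mfge8 are secreted bridging proteins, and Stab1, Stab2 and Lrp1 are large endocytic receptors. Poly-A RNA was measured in the ventricle below a ligature of the left anterior descending coronary artery, 7 days after myocardial infarction, in C57BL/6J mice aged 8 to 10 weeks. The CTL group (n = 3) had the genotype Postn CreER+/- with Runx1 WT, and the RUNX1 FB-KO group (n = 3) had Postn CreER+/- with Runx1 fl. Both groups thus carried the tamoxifen-inducible recombinase, driven by the promoter of the activated fibroblast gene periostin, and both ate a tamoxifen diet from surgery to collection. CTL replicate 1 and RUNX1 FB-KO replicates 2 and 3 were female, and the other libraries were from males.

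A dying cell exposes phosphatidylserine on its outer surface. Gas6 and Pros1 bind this lipid through a domain modified with the help of vitamin K and dock it to the TAM receptors, while Mfge8 links the lipid to integrins. Stabilins bind phosphatidylserine directly, and Lrp1 takes up calreticulin-tagged cells together with many other ligands. In the heart after infarction, uptake of dead heart muscle cells by macrophages is known to depend in part on Mertk, whereas Axl, Gas6, Mfge8 and Lrp1 are also made by fibroblasts and vessel cells.

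Of the 9 genes 8 had lower mean levels in RUNX1 FB-KO libraries, at 45.4% (Mertk) to 70.9% (Axl) of the CTL mean, and Stab2, barely detected, was at 100.2%. None of the 9 passed the threshold, an edgeR adjusted p of 0.05, as for all genes tested (0 of 14237, or 0%). All 9 had passed the filter on low counts, so the count covers every member. At an unadjusted p under 0.05 edgeR had 4 of the 9 as lower (Mertk, Pros1, Mfge8 and Gas6) and 0 as higher, where 13.1% of all genes were lower and 19.3% higher (32.4% in either direction). For 6 of the 9 all RUNX1 FB-KO values lay below all CTL values, and 18.8% of all genes did so, while 0 of the 9 and 20.2% of all genes had all values above. Negative log2 fold changes were found for 9 of 9, Stab2 at -0.0002 included, and for 54% of all genes. The median was -0.85 over the 9 genes and -0.06 over all genes tested. DESeq2 called 1 of the 9 lower (Mertk), where it called 5.17% of genes lower, and limma-voom called 0. On the genes kept by the filter DESeq2 called 2 (Mertk and Pros1), with 5.9% of genes lower. At an edgeR threshold of 0.1 there was 1 (Mertk), with 3.74% of all genes lower, and voom with sample quality weights called 8, with 30.4% of all genes lower.

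**Figure D1:**
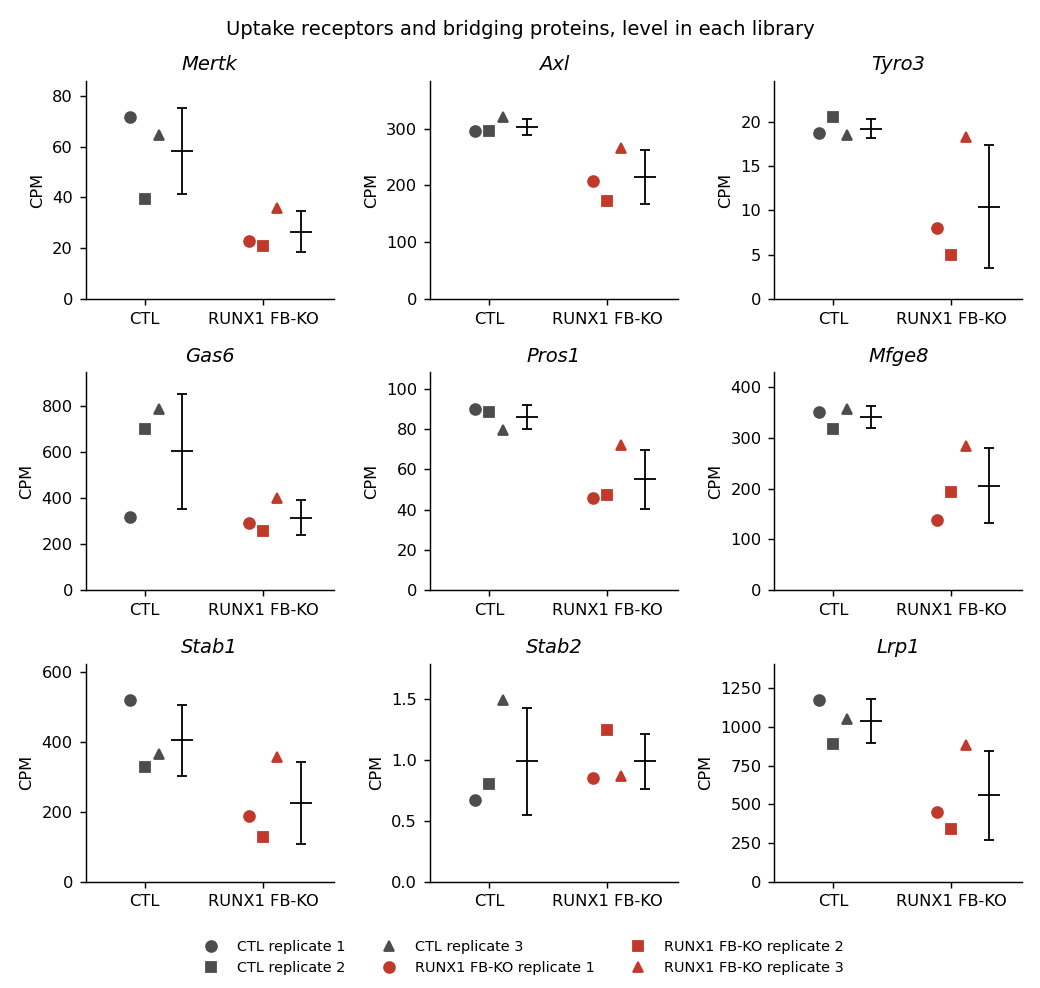
Level of each gene in CPM (reads scaled to a common library size, linear axis from 0) in the 3 CTL and 3 RUNX1 FB-KO libraries, with symbols for replicates and a bar for mean and SD (n = 3). RUNX1 FB-KO replicate 3 is the highest of its group for each gene but Stab2, and the groups overlap for Gas6, Stab1 and Stab2.

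The 3 RUNX1 FB-KO libraries were not alike, and this touches every value that follows. Runx1 itself was at 96.4, 86.9 and 85.5 CPM in CTL replicates 1, 2 and 3 and at 17.5, 10.9 and 67.4 CPM in RUNX1 FB-KO replicates 1, 2 and 3. The exon that is removed is not given in the labels, and whole tissue also holds cells without periostin. Mitochondrially encoded genes took 5.36% to 7.11% of reads in CTL and 24.49%, 19.61% and 10.37% in RUNX1 FB-KO replicates 1, 2 and 3. Marker genes of the tissue's cells moved with the groups too. Of 10 cardiomyocyte markers 10 had higher means, with summed levels of 11726 to 14740 CPM in the CTL libraries and 28497 to 102130 CPM in RUNX1 FB-KO. Of 10 macrophage markers 9 had negative log2 fold changes, with sums of 3196 to 5257 CPM and 1270 to 3303 CPM that overlapped. Of 7 fibroblast markers 7 had negative log2 fold changes, with sums of 22279 to 23212 CPM and 5305 to 19709 CPM. Most of the mean CTL sum of 22688 CPM came from Col1a1 (10241 CPM) and Col1a2 (8342 CPM). The groups overlapped for Lum, Postn, Tcf21 and Dcn, and Dcn was at 97.3% of its CTL mean. No marker of these lists was at 0. In bulk tissue, fewer cells of a type and less RNA per cell cannot be told apart.

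Among the TAM receptors, Mertk had the lowest share of its CTL level. Mertk (ENSMUSG00000014361, GRCm38 chromosome 2, 128698956 to 128802894, plus strand) is the TAM receptor best known from macrophages. It was at 71.5, 39.3 and 64.5 CPM in CTL replicates 1, 2 and 3, and at 22.9, 20.8 and 35.8 CPM in RUNX1 FB-KO replicates 1, 2 and 3. CTL replicate 2 lay well below the other CTL libraries and just above RUNX1 FB-KO replicate 3, so the groups were separate by a narrow margin. Group means were 58.5 ± 16.9 and 26.5 ± 8.12 CPM (SD, n = 3), a log2 fold change of -1.14 (SE 0.30, edgeR adjusted p = 0.0757). With DESeq2 the adjusted p was 0.0103, and over all settings tried, libraries left out included, it ran from 0.00113 to 0.268.

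Axl (ENSMUSG00000002602, chromosome 7, 25757273 to 25788705, minus strand), a receptor that binds Gas6, was the most abundant TAM receptor in every library. It was at 296, 296 and 320.2 CPM in the CTL libraries and at 208, 172 and 266 CPM in RUNX1 FB-KO. The CTL values were close together and the RUNX1 FB-KO values all lay below them. The edgeR log2 fold change was -0.50 (SE 0.22, adjusted p = 0.162), the smallest in size of the 8 genes with lower means. Tyro3 (ENSMUSG00000027298, chromosome 2, 119797733 to 119818104, plus strand), the third TAM receptor, is best known from nerve cells. It was at 18.8, 20.5 and 18.5 CPM in the CTL libraries and at 7.99, 5.0 and 18.3 CPM in RUNX1 FB-KO. Replicate 3 thus missed the CTL range by little, while replicates 1 and 2 were far below it. Its log2 fold change of -0.88 (SE 0.44, edgeR adjusted p = 0.202) was -1.52 without RUNX1 FB-KO replicate 3 and -0.55 without RUNX1 FB-KO replicate 2.

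Per unit of transcript length, the make-up of the TAM receptor pool leaned further towards Axl in RUNX1 FB-KO libraries. Of the summed TPM (the length-corrected transcript level that Salmon gives) of the 3 receptors, Axl held 79.5%, 84.5% and 80.6% in CTL replicates 1, 2 and 3. It held 87.8%, 88.0% and 84.6% in RUNX1 FB-KO replicates 1, 2 and 3, all above CTL, although replicate 3 was only just so. Mertk held 15.9%, 9.65% and 14.6% in CTL and 8.76%, 9.38% and 9.71% in RUNX1 FB-KO, and these overlapped at CTL replicate 2. Tyro3 held 2.58% to 5.89% in all libraries. These shares are given as a description and were not tested.

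Axl reads were divided by Salmon mainly between 2 coding transcripts that differ by a short exon, shown here because the division differed between the groups. Exon 10 of the 20 in Axl-201 (GRCm38, chr7:25773099-25773125, minus strand) is absent from Axl-202. Its 27 bases, a whole number of codons, are in capitals with 20 bases on each side in lower case, 5′ to 3′.
Axl-201: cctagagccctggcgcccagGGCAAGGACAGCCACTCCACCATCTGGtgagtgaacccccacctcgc
Axl-202: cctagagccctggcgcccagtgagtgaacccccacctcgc
Axl-202 was given 8.92%, 7.83% and 9.75% of Axl reads in replicates 1, 2 and 3 of CTL, and 11.5%, 14.4% and 12.1% in RUNX1 FB-KO replicates 1, 2 and 3. Every RUNX1 FB-KO share, replicate 3 included, was above every CTL share. Among 15716 transcripts with 5% to 95% of the reads of a well-covered gene, 10.5% had all RUNX1 FB-KO shares above CTL and 10.8% had all below. The 3′ ends of these Axl transcripts also lie 357 bases apart, so the estimate does not rest on the short exon alone. Of 11 member transcripts in that range, 2 had all shares above and 3 all below, and the ones described were picked after their values were seen. These are not separate cases, because the shares of a gene sum to a whole. Axl-201 was below where Axl-202 was above, and Stab1-209 was below where Stab1-201 was above.

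**Figure D2:**
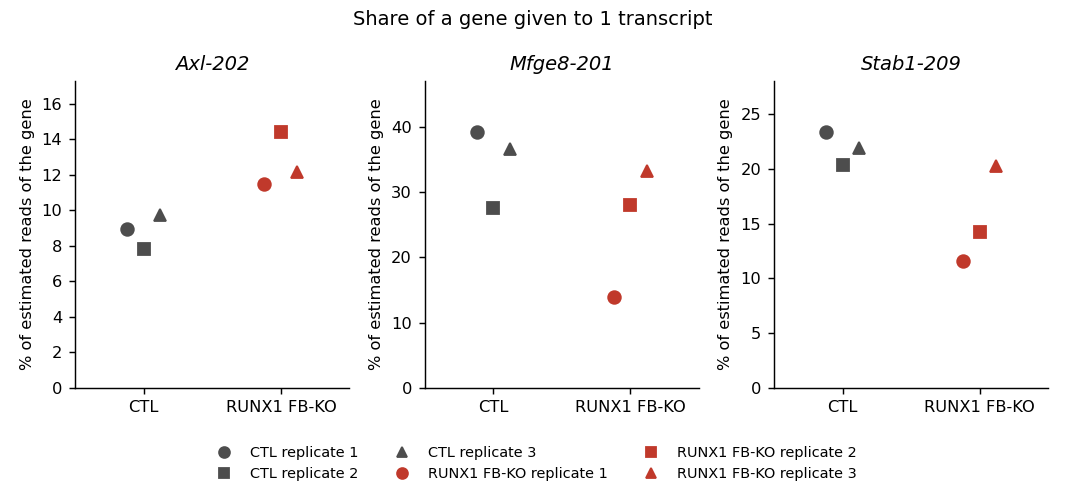
Share of the estimated reads of Axl, Mfge8 and Stab1 that went to a single transcript, in percent of the gene's reads (axis from 0), in each library. For Axl-202 the RUNX1 FB-KO libraries (11.5% to 14.4%) lie above CTL (7.83% to 9.75%), and for Mfge8-201 RUNX1 FB-KO replicate 1 stands lowest at 13.9%.

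The bridging proteins were lower in mean level as well, with the larger spread in CTL for Gas6 and in RUNX1 FB-KO for Pros1 and Mfge8. Gas6 (ENSMUSG00000031451, chromosome 8, 13465374 to 13494490, minus strand), which activates all TAM receptors, was at 318, 703 and 790.0 CPM in CTL replicates 1, 2 and 3. It was at 292, 256 and 401 CPM in RUNX1 FB-KO replicates 1, 2 and 3. The groups overlapped, with CTL replicate 1 below RUNX1 FB-KO replicate 3. Gas6 means were 604 ± 251 and 316 ± 75.4 CPM (SD, n = 3), with a log2 fold change of -0.93 (SE 0.38, edgeR adjusted p = 0.146). CTL replicate 1 was the only female of its group. With sex as a covariate the log2 fold change was -0.66, and without CTL replicate 1 it was -1.24 (edgeR adjusted p = 0.224). Gas6 shares 34 exonic bases with Tmem255b on the opposite strand, which had at most 75.4 reads.

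Pros1 (ENSMUSG00000022912, chromosome 16, 62854307 to 62929346, plus strand) encodes protein S, an anticoagulant cofactor that also activates Mertk and Tyro3. It was at 90.0, 88.6 and 79.2 CPM in the CTL libraries and at 45.9, 47.2 and 71.9 CPM in RUNX1 FB-KO. The groups were separate, and replicates 1 and 2 of RUNX1 FB-KO were nearly equal. The edgeR log2 fold change was -0.64 (SE 0.21, adjusted p = 0.102). Markers of hepatocytes, the main source of protein S in blood, were near 0, with Serpina1a at 0 in every library and summed levels of at most 0.459 CPM.

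Mfge8 (ENSMUSG00000030605, chromosome 7, 79133768 to 79149060, minus strand), also called lactadherin, was at 351, 317 and 357 CPM in CTL. In RUNX1 FB-KO replicates 1, 2 and 3 it was at 139, 194 and 284 CPM, each below the lowest CTL value. The edgeR log2 fold change was -0.73 (SE 0.28, adjusted p = 0.136). Mouse Mfge8 is known in a long form, with a stretch rich in proline and threonine, and a short form without it. The coding exon that separates the transcripts, exon 4 of the 10 in Mfge8-201 (GRCm38, chr7:79143278-79143388, minus strand), has 111 bases, given in capitals with 20 bases on each side.
Mfge8-201: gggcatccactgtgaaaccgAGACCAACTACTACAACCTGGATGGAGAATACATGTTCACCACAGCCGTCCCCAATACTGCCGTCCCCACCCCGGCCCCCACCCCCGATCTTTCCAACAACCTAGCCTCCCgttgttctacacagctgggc
Mfge8-202: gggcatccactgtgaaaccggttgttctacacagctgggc
Mfge8-201, with the exon, was given 39.2%, 27.7% and 36.6% of the gene's reads in CTL and 13.9%, 28.0% and 33.2% in RUNX1 FB-KO. The shares overlapped, and only RUNX1 FB-KO replicate 1 lay outside the CTL range.

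Within the bridging proteins the proportions held no separation of the groups. Gas6 made up 37.1% to 59.5% of their summed TPM in CTL and 46.8% to 57.0% in RUNX1 FB-KO. Mfge8 made up 34.1% to 52.8% and 35.6% to 46.9%, and Pros1 5.91% to 10.1% and 6.32% to 8.55%.

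Lrp1 and Stab1, the abundant endocytic receptors, followed the same split between libraries. Lrp1 (ENSMUSG00000040249, chromosome 10, 127538161 to 127621148, minus strand) was at 1173, 891 and 1052 CPM in the CTL libraries and at 451, 342 and 885 CPM in RUNX1 FB-KO. RUNX1 FB-KO replicate 3 was just under CTL replicate 2, and replicates 1 and 2 were far below. The edgeR log2 fold change was -0.89 (SE 0.39, adjusted p = 0.163). Stab1 (ENSMUSG00000042286, chromosome 14, 31139013 to 31168641, minus strand), a scavenger receptor of macrophages and sinusoidal endothelium, was at 519, 327 and 365 CPM in the CTL libraries and at 189, 128 and 355 CPM in RUNX1 FB-KO. Its groups overlapped, with RUNX1 FB-KO replicate 3 inside the CTL range, and the edgeR log2 fold change was -0.85 (SE 0.40, adjusted p = 0.183).

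A part of the Stab1 reads went to transcripts annotated as retaining an intron. The largest of these, Stab1-209, was given 23.4%, 20.3% and 21.9% of Stab1 reads in CTL and 11.6%, 14.2% and 20.3% in RUNX1 FB-KO, so replicates 1 and 2 were lower and replicate 3 was at the edge of CTL. For Lrp1 the retained-intron transcript Lrp1-208 was given 7.16% to 7.74% in CTL and 4.11%, 7.14% and 6.85% in RUNX1 FB-KO. Stab1 also shares 112 exonic bases with Nt5dc2 on the opposite strand, which had 368 to 1385 reads, and the library protocol in the labels does not say whether strand was kept.

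Stab2 (ENSMUSG00000035459, chromosome 10, 86841198 to 87008025, minus strand), a receptor of sinusoidal and lymphatic endothelium, was at the limit of detection. It had 15, 18 and 30 reads in CTL and 13, 16 and 17 reads in RUNX1 FB-KO. That is 0.667 to 1.49 CPM and 0.851 to 1.25 CPM, with the RUNX1 FB-KO values inside the CTL range. Its log2 fold change by edgeR was -0.0002 (SE 0.47, adjusted p = 0.9996). Its division between transcripts rests on too few reads to be read.

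Ordered by TPM, which corrects for transcript length, Gas6 (431 ± 183), Lrp1 (420 ± 65.6) and Mfge8 (313 ± 23.1 TPM, SD, n = 3) were the highest of the 9 in CTL libraries. Stab1 (176 ± 46.5) and Axl (140 ± 6.48) came next, then Pros1 (58.4 ± 2.30), Mertk (23.2 ± 7.13), Tyro3 (8.69 ± 0.46) and Stab2 (0.732 ± 0.651 TPM). In CTL the ranges over libraries overlapped between Gas6 and Lrp1 and between Stab1 and Axl, and every other pair of neighbours was separate. In RUNX1 FB-KO the order was Lrp1, Gas6, Mfge8, Axl, Stab1, Pros1, Mertk, Tyro3 and Stab2. There the neighbours overlapped except for Pros1 (12.4 to 44.7 TPM) above Mertk (4.01 to 12.2 TPM). RUNX1 FB-KO replicate 3 was the highest of its group for both. Mertk was thus below Lrp1, Stab1 and Axl among the receptors per length, in both groups.

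**Figure D3:**
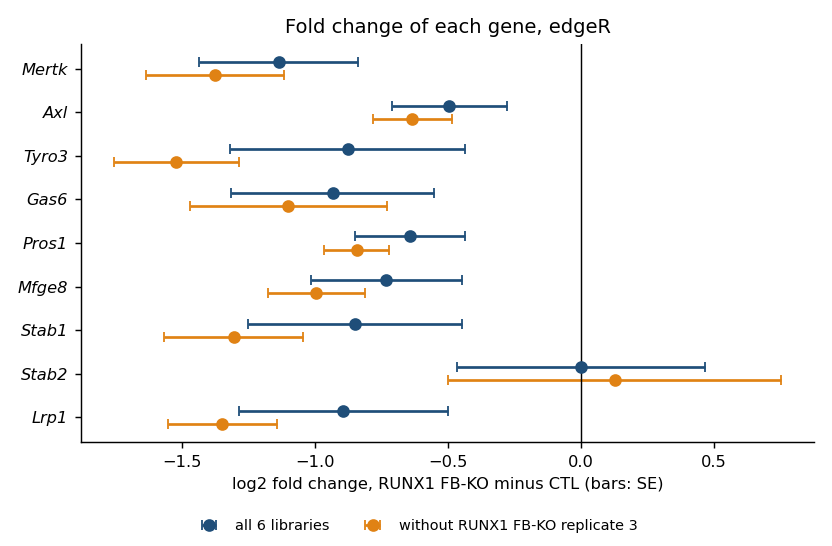
Log2 fold change of each gene, RUNX1 FB-KO minus CTL, by edgeR with all 6 libraries (blue) and without RUNX1 FB-KO replicate 3 (orange), with bars for the SE. The 8 genes other than Stab2 lie at -0.50 to -1.14 with all libraries and at -0.63 to -1.52 without replicate 3.

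Without RUNX1 FB-KO replicate 3, 8 of the 9 genes were lower past the threshold and Stab2 was not. In that fit 22.5% of all 14609 genes tested were lower past the threshold and 25.1% higher, 6947 in all. Negative log2 fold changes were found for 8 of 9 members and 52.3% of all genes. The log2 fold changes were -1.38 for Mertk (edgeR adjusted p = 0.0043), -1.52 for Tyro3 (0.00181) and -0.63 for Axl (0.0106). By the same edgeR fit they were -1.10 for Gas6 (adjusted p = 0.0434), -0.84 for Pros1 (0.00137) and -0.996 for Mfge8 (0.00382), and -1.35 for Lrp1 (0.00169) and -1.31 for Stab1 (0.0055). In units of log2 from the CTL mean, RUNX1 FB-KO replicate 3 lay at -0.66 for Mertk and -0.49 for Gas6, and between -0.07 and -0.26 for the other 6 of these genes. RUNX1 FB-KO replicates 1 and 2 lay between -0.54 and -1.95 for all 8. No other left-out library led to a call for any of the 9 by edgeR.

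**Figure D4:**
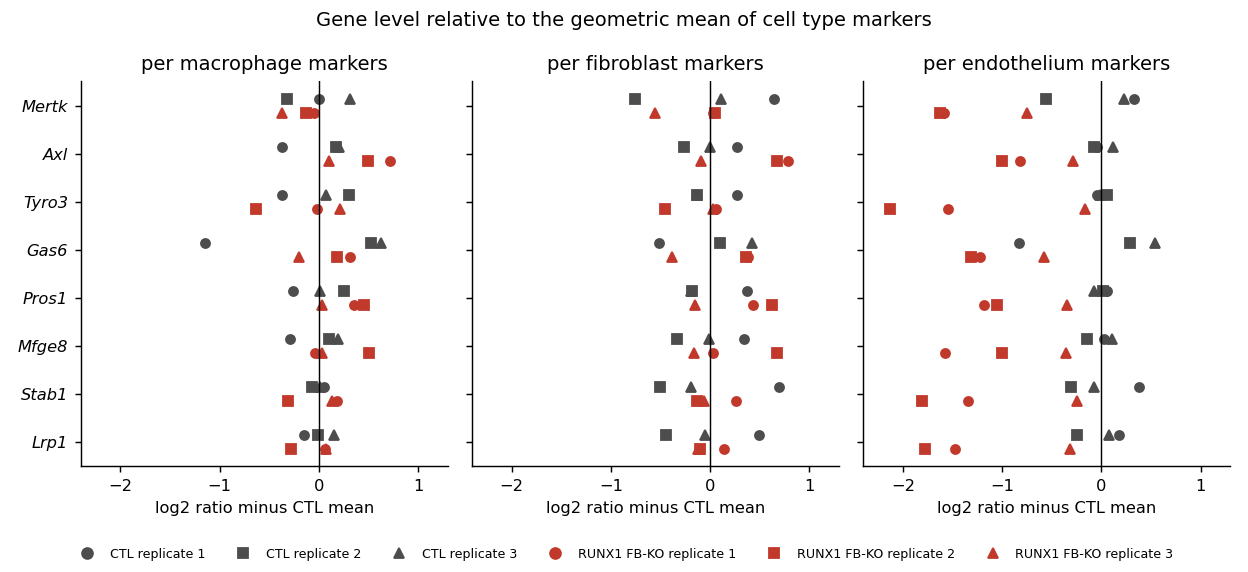
Log2 of each gene's CPM over the geometric mean CPM of macrophage, fibroblast or endothelium markers, minus the CTL mean of that ratio, for each library (Stab2 left out for its low counts). Per macrophage or fibroblast marker level the 2 groups overlap for all 8 genes, and per endothelium marker level 6 of the 8 have all RUNX1 FB-KO values below CTL.

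Set against cell type markers, the lower levels went with lower macrophage and fibroblast markers, while endothelial markers differed less. Most other immune cell markers had negative log2 fold changes too. Summed monocyte, neutrophil and T and NK cell markers lay below every CTL library in every RUNX1 FB-KO library. Their median log2 fold changes were -0.44, -0.88 and -1.52, with T and NK sums of at most 10.0 CPM. Of tested markers, all values lay below CTL for 2 of 5 (monocyte), 1 of 4 (neutrophil) and 3 of 3 (T and NK). The share over all genes was 18.8%. B cell (-2.58) and dendritic cell (-0.71) sums overlapped. The dendritic cell sum was higher in mean, at 19.8 CPM in CTL and 22.0 CPM in RUNX1 FB-KO. The geometric mean of the 10 macrophage markers was 194, 134 and 141 CPM in the CTL libraries and 64.6, 61.9 and 126 CPM in RUNX1 FB-KO. That of the 7 fibroblast markers was 710, 1026 and 924 CPM in the CTL libraries and 348, 312 and 818 CPM in RUNX1 FB-KO. Mean log2 differences between the groups were -0.95 and -0.97 for these sets, 0.18 for the 7 endothelium markers and 2.24 for the 10 cardiomyocyte markers. Of the endothelium markers 5 had negative and 2 positive log2 fold changes (median -0.04), and the positive ones were Kdr (1.41) and Fabp4 (0.53). Per macrophage marker level, the groups overlapped for 9 of 9 genes, where they did not overlap for 46.6% of all genes. Mertk had log2 ratios of -1.44, -1.76 and -1.13 in CTL and -1.49, -1.57 and -1.81 in RUNX1 FB-KO, a mean difference of -0.18. Stab1 differed by 0.003, Lrp1 by -0.05, Tyro3 by -0.14 and Gas6 by 0.10, all within the CTL spread (SD 0.06, 0.15, 0.34 and 0.999). Mfge8 differed by 0.16 (CTL SD 0.26), Pros1 by 0.28, just over its CTL SD of 0.26, and Stab2, from few reads, by 1.02 (CTL SD 0.81). Axl had the largest difference of the well-measured genes, 0.44 (CTL SD 0.32), with log2 ratios of 0.61, 1.147 and 1.18 in CTL and 1.69, 1.47 and 1.08 in RUNX1 FB-KO. Per fibroblast marker level the groups again overlapped for 9 of 9 (26.1% of all genes did not), with Axl at 0.46 and Mertk at -0.16.

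Per endothelium marker level 6 of the 9 (Mertk, Axl, Tyro3, Pros1, Mfge8 and Lrp1) had all RUNX1 FB-KO values below CTL, as did 28% of all genes. They are the 6 whose plain CPM were separate. The mean log2 differences of these genes ran from -0.70 for Axl to -1.32 for Mertk. These ratios describe the libraries and carry no test. They do not show which cells made each transcript, and the part of cell number in the differences was not tested. The resident macrophage markers did not follow the same course: of 5, 3 had positive and 2 negative log2 fold changes, and Cd163 was at 28.4 to 40.3 CPM in the CTL libraries and at 67.9, 46.7 and 19.1 CPM in RUNX1 FB-KO.

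Across the 6 libraries the 8 well-measured genes varied together, apart from Gas6. Pearson's r of log2 CPM was 0.98 between Stab1 and Lrp1, 0.97 between Axl and Lrp1 and between Axl and Tyro3, and 0.90 between Mertk and Axl (n = 6 libraries). Gas6 correlated with the others at 0.50 (Stab1) to 0.78 (Axl). The genes closest in pattern to Mertk were Cxcl5, Grk6 and Gm20390, those closest to Axl were L3mbtl3, Ppm1m and Ccdc82, and those closest to Tyro3 were Phldb2, Senp1 and Fam114a1. For Gas6 they were Scap, Ttpal and Ahi1, for Pros1 Ggh, Vps4b and Ms4a6b, and for Mfge8 Ube2z, Phc2 and Tent5b. For Stab1 they were Mki67, Gjb5 and Steap3, for Lrp1 Myo9b, B4galnt1 and Apaf1, and for Stab2 Mtcl1, Tmem115 and Cpq. All but those for Stab2 had r of 0.99 or more. With so few libraries, which share the split between RUNX1 FB-KO replicates 1 and 2 and the rest, high values are frequent for some of them. Of the 11587 genes compared, 16.9% had r over 0.9 with Axl and 1.48% with Gas6, and 51 genes had r over 0.99 with Axl, 167 with Lrp1 and 3 with Gas6.

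The promoters were searched for the core letters of the RUNX binding motif, because Runx1 is the gene targeted. Both spellings, TGTGGT and TGCGGT, were looked for on both strands in the 300 bases around each RefSeq start site (250 before and 50 after, GRCm38.p6), which were found for 9 of 9 genes. TGTGGT was present in 2 of the 9, Mfge8 (from base -76) and Stab2 (from base -73), and in 16.8% of 32851 mouse promoters. In the annotation used for the counts Stab2 starts at 87008025, so its match lies inside that gene and precedes the RefSeq start only. TGCGGT was present in 1 of the 9, Gas6 (from bases -142 and 27, on the other strand), and in 6.5% of promoters. The stretches that hold the matches before the RefSeq start site are shown 5′ to 3′ on the gene's strand, with the match in capitals: chr7:79149061-79149210 for Mfge8, chr10:87007998-87008027 for Stab2 and chr8:13494660-13494689 for Gas6, all minus strand.
Mfge8: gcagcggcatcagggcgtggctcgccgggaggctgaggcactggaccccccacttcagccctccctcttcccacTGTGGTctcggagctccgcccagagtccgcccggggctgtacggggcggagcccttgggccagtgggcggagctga
Stab2: ccactgagctccTGTGGTttctcagcctgg
Gas6: tcctttcattttACCGCAttctagcagtga
The genes with a match had log2 fold changes of -0.73, -0.0002 and -0.93. Those with none of these letters in the window ran from -0.50 (Axl) to -1.14 (Mertk). Whether matches go with fold changes was not tested. A match describes letters and is no sign of binding.

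Most of the other receptors for dying cells had lower means. Of 24 genes 22 were tested, 21 with negative and 1 with positive log2 fold changes, and the median was -0.83 beside -0.06 for all genes. By edgeR 0 passed the threshold, 6 were lower and 1 higher at an unadjusted p under 0.05. Of all genes 13.1% were lower and 19.3% higher at that p. The tested gene with a positive value was Cd36, a receptor for phosphatidylserine and fatty acids that heart muscle also makes. Cd36 was at 436 ± 80.5 CPM in the CTL libraries and 1595 ± 857 CPM in RUNX1 FB-KO (SD, n = 3), and at 1771, 2351 and 664 CPM in RUNX1 FB-KO replicates 1, 2 and 3, all above CTL. With Cd36 included, the summed level of the list was 1996 to 2308 CPM in CTL libraries and 2175 to 3006 CPM in RUNX1 FB-KO libraries, which overlapped. Cd300a, an inhibitory receptor for phosphatidylserine, was at 40.7 ± 3.24 and 15.3 ± 9.97 CPM, and Itgb2, the shared leukocyte integrin chain, at 116 ± 34.6 and 56.3 ± 26.3 CPM. Without RUNX1 FB-KO replicate 3, 18 of the 22 were lower and 1 (Cd36) higher past the threshold. In that fit 22.5% of all genes were lower and 25.1% higher.

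Other soluble bridges and opsonins behaved alike. Of 17 genes 13 were tested, all 13 with negative log2 fold changes and a median of -0.97. All RUNX1 FB-KO values lay below CTL for 5 of them and for 18.8% of all genes. Ptx3, a pentraxin that binds dying cells, was at 12.4, 9.11 and 12.3 CPM in the CTL libraries and 2.88, 4.53 and 6.64 CPM in RUNX1 FB-KO (log2 fold change -1.26, SE 0.34, edgeR adjusted p = 0.0791). The complement opsonin genes C1qc and C1qa had -0.99 (SE 0.39) and -0.97 (SE 0.38). C1qa is also among the macrophage markers used above. Mbl2 was at 0 in every library. By edgeR 0 passed and 3 were lower at an unadjusted p under 0.05, where 13.1% of all genes were. Without RUNX1 FB-KO replicate 3, 10 of 13 passed as lower, beside 22.5% of all genes.

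**Figure D5:**
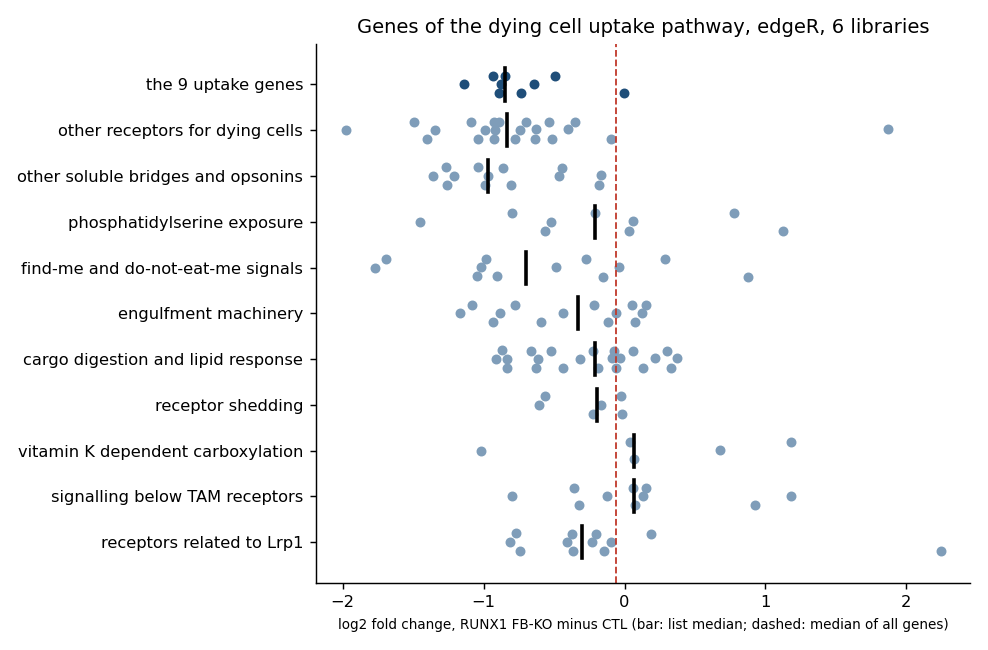
Log2 fold change (RUNX1 FB-KO minus CTL, edgeR, all 6 libraries) of the tested genes of each list, with the list median as a black bar and the median of all genes (-0.06) as a dashed line. The 9 uptake genes, the other receptors and the soluble bridges have medians of -0.85, -0.83 and -0.97, and the vitamin K and TAM signalling lists lie near 0.

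Genes for phosphatidylserine exposure went both ways, while most find-me and do-not-eat-me genes had negative log2 fold changes. In the list for phosphatidylserine exposure 9 of 10 were tested, 5 with negative and 4 with positive log2 fold changes (median -0.21). Atp11a and Atp8a1, flippases that return phosphatidylserine to the inner leaflet, had higher means, at 101 ± 10.1 and 173 ± 36.5 CPM for Atp11a and a log2 fold change of 1.12 (SE 0.32) for Atp8a1. Plscr3, a scramblase family member, had -0.80 (SE 0.25), and the groups were separate for all 3. Of 12 find-me and do-not-eat-me genes 10 had negative and 2 positive values (median -0.70). P2ry2, a receptor for nucleotides released by dying cells, was at 18.4 ± 1.09 CPM in the CTL libraries and 33.8 ± 6.60 CPM in RUNX1 FB-KO (log2 fold change 0.87, SE 0.18, edgeR adjusted p = 0.0682). Cd24a, a do-not-eat-me signal, had -1.69 (SE 0.46), and the nucleotide receptor P2ry6 had -1.04 (SE 0.40). By edgeR 0 genes of either list passed. Without RUNX1 FB-KO replicate 3 the exposure list had 2 lower and 2 higher past the threshold, and the signal list 6 lower and 1 higher. In that fit 22.5% of all genes were lower and 25.1% higher, and the exposure counts were near these shares. At an unadjusted p under 0.05, 2 exposure genes were lower and 2 higher, and 3 signal genes were lower and 1 higher. Of all genes 13.1% were lower and 19.3% higher at that p by edgeR with all 6 libraries.

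Inside the engulfing cell, most genes of the machinery had lower means. Of 14 engulfment genes 10 had negative and 4 positive log2 fold changes (median -0.33). By edgeR 6 were lower at an unadjusted p under 0.05, where 13.1% of all genes were, and 0 passed. Rhog, a small GTPase above Rac, was at 68.1 ± 13.7 and 35.5 ± 15.3 CPM, and Dock2, the Rac activator of blood cells, at 51.5 ± 11.8 and 24.2 ± 12.96 CPM. Elmo2, a Dock partner, had a log2 fold change of -0.44 (SE 0.16). The widely expressed Dock1, at 53.1 to 55.4 CPM in the CTL libraries and 54.6 to 61.1 CPM in RUNX1 FB-KO, had 0.12 (SE 0.13), and was named after its values were seen. Of 22 genes for digestion of cargo and the lipid response 16 had negative and 6 positive values (median -0.21), 0 passed, and 3 were lower at an unadjusted p under 0.05, a share near the 13.1% of all genes. These 3 were Slc29a3, a lysosomal nucleoside transporter (-0.91, SE 0.31), Dnase2a, the lysosomal nuclease for engulfed DNA (-0.84, SE 0.30), and Npc2, which moves lysosomal cholesterol (-0.87, SE 0.32). Without RUNX1 FB-KO replicate 3, 7 engulfment genes passed as lower and 0 as higher, and 8 digestion genes as lower and 2 as higher. In that fit 22.5% of all genes were lower and 25.1% higher.

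Genes that act on the TAM axis itself were less uniform. For shedding of the receptors, 6 of 6 genes had negative values with a median of -0.20. Rhbdf1, which guides Adam17 to the surface, had -0.61 (SE 0.22) and the protease Adam10 -0.56 (SE 0.23), while Adam17, known to cleave Mertk, was at 79.7 ± 7.88 and 71.0 ± 17.1 CPM with -0.17 (SE 0.20) and overlapping groups. For the carboxylation of Gas6 and Pros1, 4 of 5 genes had positive values (median 0.06). Nqo1, a quinone reductase, was at 20.8, 25.6 and 17.9 CPM in the CTL libraries and 52.9, 58.0 and 35.3 CPM in RUNX1 FB-KO (log2 fold change 1.18, SE 0.23, edgeR adjusted p = 0.0682). Vkorc1, the vitamin K epoxide reductase, was at 50.8 ± 3.47 and 25.0 ± 13.2 CPM (-1.02, SE 0.34), whereas the carboxylase Ggcx had 0.06 (SE 0.17) and overlapping groups.

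Of 10 signalling genes 4 had negative and 6 positive values (median 0.07). Pik3r1, a regulatory subunit of PI3-kinase, was at 99.8 ± 4.83 and 227 ± 93.3 CPM, and the phosphatase Ptpn11 at 210.1 ± 27.0 and 399 ± 115 CPM, both with separate groups, while Socs3, an inhibitor of cytokine signalling, had -0.80 (SE 0.37). In the list of receptors related to Lrp1, 10 of 12 tested genes had negative and 2 positive values (median -0.30). Vldlr, a lipoprotein receptor that heart muscle makes, was at 53.0, 115 and 63.0 CPM in the CTL libraries and 410.4, 547 and 137 CPM in RUNX1 FB-KO (2.24, SE 0.55), opposite to Lrp1. Lrp12, another member, had -0.82 (SE 0.30). In these 4 lists 0 genes passed by edgeR. Over all the lists, the 9 genes included, DESeq2 called 10 lower and 9 higher. Of all genes it called 5.17% lower and 14.8% higher. Voom with sample quality weights called 75 lower and 11 higher, where it called 30.4% of all genes lower. Its share of all genes higher is not given here. Without RUNX1 FB-KO replicate 3 edgeR called 2 lower for shedding, 1 lower and 2 higher for carboxylation, and 2 lower and 2 higher for signalling. It called 4 lower and 1 higher for the receptors related to Lrp1. In that fit 22.5% of all genes were lower and 25.1% higher. At an unadjusted p under 0.05 the counts were 2 lower for shedding, 1 lower and 2 higher for carboxylation, 2 higher for signalling, and 2 lower and 1 higher for the receptors related to Lrp1, beside 13.1% lower and 19.3% higher of all genes. The cardiomyocyte markers and mitochondrial reads given above were higher in the same libraries as Cd36, Vldlr, Pik3r1 and Ptpn11, and their part in these differences was not tested.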

How the data were processed

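Poly-A RNA of 6 samples was analysed from 1 Salmon table each. Salmon 1.5.2, DESeq2 1.44.0 and the build GRCm38 are named in the submitters' processing notes, and the annotation release is not given in the sources used here. For 116546 transcripts the authors deposited estimated counts, TPM and effective length (a column in bases). Estimated counts were summed to 35498 genes with GENCODE M21 (115977 transcripts matched, 569 did not, holding 0.0777% to 0.102% of reads) and rounded. Libraries held 16598561 to 19987279 estimated reads.

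Genes kept by filterByExpr (14237) were scaled by TMM and tested by edgeR 4.0.16 quasi-likelihood tests, RUNX1 FB-KO against CTL, with Benjamini-Hochberg adjustment and a threshold of 0.05. The fit was checked on simulated data. Each SE was taken as the size of the log2 fold change over the root of its F statistic. CPM are TMM-scaled. Alternatives used limma 3.58.1 and DESeq2 1.42.0. The labels number the samples of a group without stating that each is a separate animal, so p-values measure the spread between these samples, which may be in part technical. Each group held both sexes, so its libraries were not all from a single animal.

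The 9 genes and the gene lists were chosen with earlier results of these data known. Of each list, the 3 tested genes with the smallest p were named. Single genes of 2 lists that this rule names are not reported here. Likeness used tested genes with a mean log2 CPM (prior count 2) of at least 2. Transcript shares were compared for transcripts with 5% to 95% of the reads of a gene with at least 1000 reads.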

Additional observations from a re-analysis of the deposited data

How the results depend on the processing

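The 8 genes other than Stab2 kept negative log2 fold changes in every alternative run. Members called lower numbered 0 with all 6 libraries by edgeR and 0 to 8 when a library was left out (8 without RUNX1 FB-KO replicate 3, otherwise 0). DESeq2 called 1 (Mertk) and, on the genes kept by filterByExpr, 2 (Mertk and Pros1; 2995 genes in all, 5.9% of genes lower). Voom with sample quality weights called 8, where it called 30.4% of all genes lower, and had a member median of -1.18. A threshold of 0.1 gave 1 (Mertk), with 3.74% of genes lower. The latter DESeq2 fit, the weighted voom fit and the fibroblast and endothelium denominators were chosen after seeing the data. With library size alone the member median was -1.21, while the median of all genes moved from -0.06 to -0.52. With a library left out, member medians ran from -1.10 to -0.57. Of the list genes, members included, edgeR without a filter called 3 higher and 0 lower. Without RUNX1 FB-KO replicate 3 it called 11 higher and 68 lower, beside 25.1% higher and 22.5% lower of all genes. Over all genes, edgeR without a filter called 889, DESeq2 2824 and edgeR without RUNX1 FB-KO replicate 3 6947, beside 0.

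Stab2 turned positive with sex as a covariate (0.11), RLE size factors (0.0348), the effective length offset (0.503), DESeq2 (0.0352, and 0.0335 on the filtered genes) and limma-voom (0.0731). Leaving out libraries it ran from -0.22 to 0.42. It was not tested at a CPM of at least 1 in 3 samples. The cause was not tested. With the replicate number as a block the count of members called was 0, the member median -0.86 and Stab2 0.0562. Same-numbered libraries shared only a number (correlations of deviations -0.05, 0.11 and 0.08), and not every library correlated best with its own number. Ratios to macrophage markers overlapped for all members also with the sum as denominator, and the order of mean levels over all 6 libraries was the same with counts per kb. Stab2 had 13 to 30 reads.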
